A study of Homo sapiens with 12 samples.

Results

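The genes described here encode the enzymes of cholesterol and fatty acid synthesis and the proteins that switch them on or off. The list named 32 genes: 18 of a sterol arm, 5 regulators and 9 of a fatty acid arm. A gene was measured if the array held a probe set annotated to it alone, and of its probe sets the one with the highest mean over the 12 arrays was used. By that rule 28 of the 32 were measured, among 11963 genes on the array: 16 of the sterol arm, all 5 regulators and 7 of the fatty acid arm. FDFT1 and ACSL3 had no probe set under their own symbol. The 2 probe sets of CYP51A1 also carried LRRD1, and the 3 of FADS1 also carried MIR1908, so these 4 genes were not analysed here.

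As background, cells make cholesterol from acetyl-CoA through the mevalonate pathway, with squalene and lanosterol as later stations. They make fatty acids from the same acetyl-CoA through malonyl-CoA, and desaturases and elongases then modify the chains. Both arms are transcribed under the sterol regulatory element binding proteins, encoded by SREBF1 and SREBF2. These factors are held in the endoplasmic reticulum by the INSIG proteins when sterols are plentiful and are escorted to the Golgi by SCAP for cleavage when sterols are scarce. INSIG1 is itself a target of the factors, as are HMGCS1, SCD and FASN.

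The 12 arrays came from 3 head and neck cancer lines labelled Detroit, Fadu and OECM1, each as parent cells and as an invasion subline collected after passage through Matrigel, a basement membrane extract. Fadu is a hypopharyngeal and OECM1 an oral squamous carcinoma line; the labels do not say which Detroit line was used or whether a subline was 1 clone or a pool. No group carried a further treatment or a genetic change in the labels, and each of the 6 groups held 2 arrays of total RNA. Values are log2 expression after RMA, which brings all arrays to one scale, and a level is compared only between arrays for the same probe set.

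Of the 8 epithelial markers measured, 7, EPCAM, CDH1, KRT8, KRT18, KRT19, KRT5 and DSP, lay above the dim limit of 4.52 on all 12 arrays. KRT14, a basal keratin, was above it on 7, with a mean of 4.05 in the Detroit parent, 10.52 in the Detroit-labelled subline and 8.87 in the Fadu parent. The 4 endothelial markers, the leukocyte genes PTPRC and LYZ, the fibroblast genes COL3A1 and LUM, and the adipocyte genes ADIPOQ, FABP4, LPL and LEP were above it on 0 arrays. The other measured genes of these lists did exceed it. Of the fibroblast genes, COL1A1 did so on 12 arrays, COL1A2 on 11, DCN and PDGFRB on 8 and THY1 on 6. CD3E did so on 8, CD14 on 7 and the adipocyte gene PLIN1 on 8. COL1A2 had a mean of 6.92 in the Detroit parent and of 4.60 to 4.73 in the other groups. The arrays labelled Detroit invasion subline stood apart from their label over the whole array: in 61.2% of the 8992 genes tested their mean lay nearer to the Fadu parent than to the Detroit parent. Among the 28 measured members this held for 10. Every Detroit value below compares the groups as labelled, and what these differences owe to the standing of that subline was not tested. Duplicates also differed more in the sterol arm than over all genes. The root mean square difference of the sterol genes between the 2 arrays was 1.06 in the Detroit-labelled subline, against 0.89 for all genes. In the OECM1 parent it was 1.20 against 0.75. The other arms also differed more than all genes in most groups. The fatty acid arm reached 1.58 in the OECM1 parent. In the Fadu parent the regulators reached 1.08 and the fatty acid arm 0.92, against 0.48. Exceptions were the regulators in the Detroit parent (0.20 against 0.58) and the fatty acid arm in the Detroit-labelled (0.79 against 0.89) and OECM1 (0.15 against 0.50) sublines.

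Promoters are shown for 4 of the 13 members whose arrays in the Fadu subline did not overlap those of the Fadu parent. These 4 are a choice among the 13 and not a set fixed by that condition. The sequences are from RefSeq, GRCh38.p14, and run 250 bases up to the annotated start. Capitals mark CCAAT boxes (CCAAT, or ATTGG on the other strand), GC boxes (GGGCGG or CCGCCC), the E-box CACGTG and the sterol response element TCACNCCAC. HMGCS1, which makes HMG-CoA, is shown at chr5:43313413-43313662 on the minus strand, for 1 of its 2 annotated starts. INSIG1 is at chr7:155297628-155297877, SCD, the stearoyl-CoA desaturase, at chr10:100346983-100347232, and SREBF2 at chr22:41832855-41833104, all on the plus strand.
HMGCS1: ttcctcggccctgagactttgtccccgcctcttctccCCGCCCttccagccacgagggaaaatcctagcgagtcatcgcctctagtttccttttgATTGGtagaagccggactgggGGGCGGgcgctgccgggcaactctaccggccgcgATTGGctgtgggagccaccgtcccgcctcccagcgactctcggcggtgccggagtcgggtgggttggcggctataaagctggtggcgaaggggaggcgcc
INSIG1: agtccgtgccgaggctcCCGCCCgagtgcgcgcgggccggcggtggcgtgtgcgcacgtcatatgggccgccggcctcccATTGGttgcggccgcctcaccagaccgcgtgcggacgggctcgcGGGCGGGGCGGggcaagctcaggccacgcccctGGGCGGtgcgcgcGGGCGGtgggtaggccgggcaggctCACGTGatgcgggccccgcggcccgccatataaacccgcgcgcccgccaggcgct
SCD: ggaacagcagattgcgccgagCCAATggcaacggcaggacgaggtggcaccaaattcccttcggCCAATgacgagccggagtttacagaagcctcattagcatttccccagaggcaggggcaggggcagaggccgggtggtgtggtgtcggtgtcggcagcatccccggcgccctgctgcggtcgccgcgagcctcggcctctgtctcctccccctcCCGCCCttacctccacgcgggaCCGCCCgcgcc
SREBF2: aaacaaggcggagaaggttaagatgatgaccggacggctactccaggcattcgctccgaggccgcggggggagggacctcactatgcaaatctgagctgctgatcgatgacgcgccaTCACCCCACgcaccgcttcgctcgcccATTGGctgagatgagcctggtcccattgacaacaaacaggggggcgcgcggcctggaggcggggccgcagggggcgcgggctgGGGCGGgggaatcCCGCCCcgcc
In the window of 250 bases before to 50 after the start, searched on both strands, 28 of the 32 listed genes had an entry; FDFT1, SQLE, ACAT2 and FASN did not. A CCAAT box was held by 21 of these 28 genes, against 39.7% of all 27305 genes and 34.6% of all promoters in the table. A GC box was held by 26 of 28, against 48.3% of genes and 45% of promoters. The E-box was held by 5 (8.77% of genes and 7.26% of promoters). The sterol response element in these letters was held by SREBF2 alone (1.39% of genes and 1.13% of promoters). A match describes the letters only and is no evidence of a bound site.

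**Figure D1:**
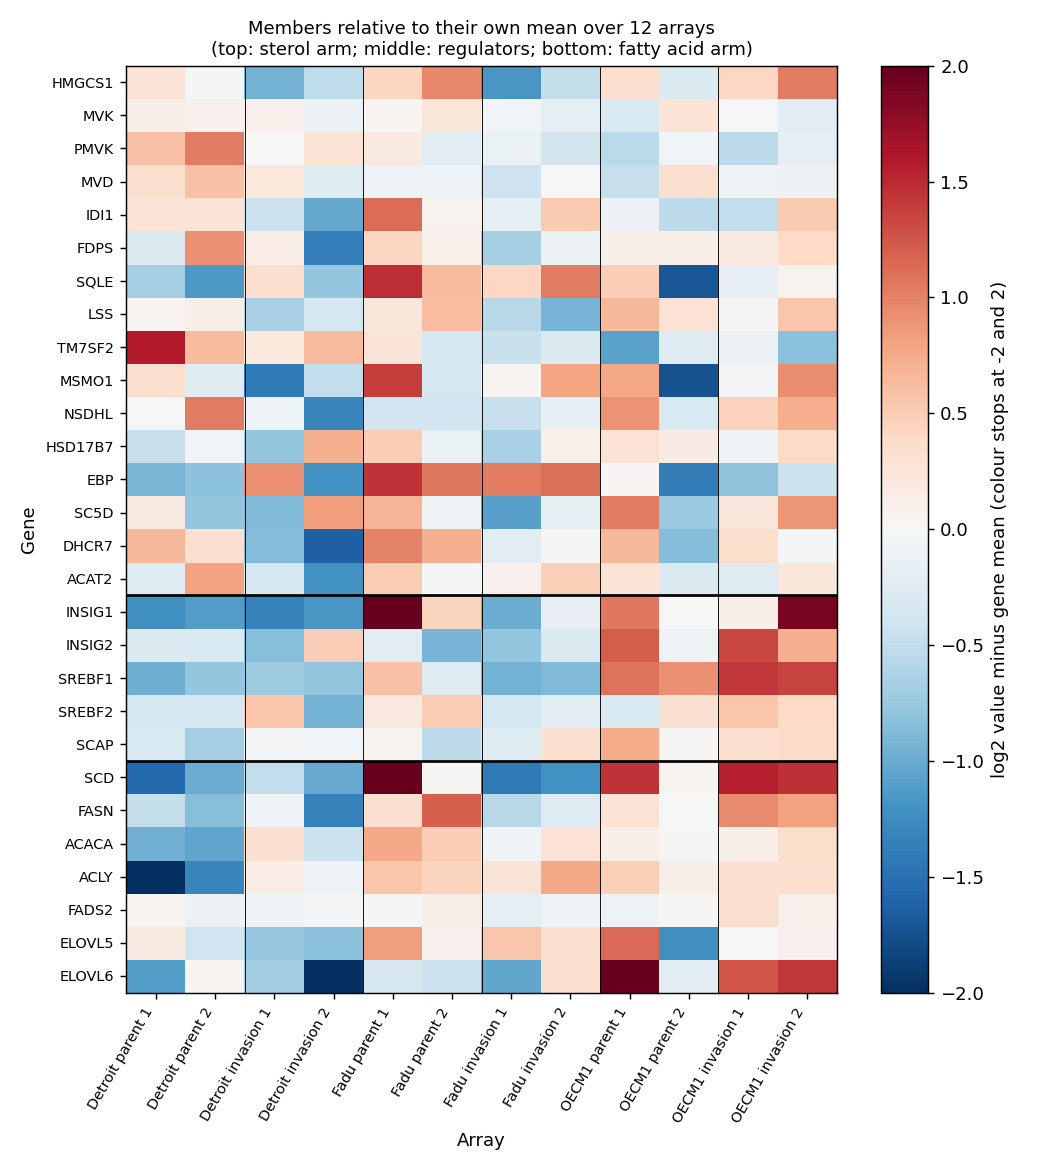
Log2 value of each of the 28 measured members (rows, ordered by arm) minus its own mean over the 12 arrays (columns, ordered by line, parent before subline); colour stops at -2 and 2. SCD and INSIG1 are high in Fadu parent replicate 1 and low in both Fadu subline arrays, ACLY is low in both Detroit parent arrays, and SQLE and MSMO1 are low in OECM1 parent replicate 2.

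Most sterol genes had lower values in the sublines of Detroit and Fadu than in the parents, and no single gene passed the test in any line. A fold change here is invasion subline over parent. It was fitted with limma over all 12 arrays, and a gene was called at a Benjamini-Hochberg adjusted p under 0.05 over 8992 genes. The median log2 fold change of the 16 genes was -0.68 in Detroit, -0.33 in Fadu and 0.17 in OECM1, against -0.01, -0.02 and 0.01 over all genes tested. Values were below 0 for 12, 14 and 6 of the 16 genes. The OECM1 median turned to -0.21 without OECM1 parent replicate 2, and the Fadu median ran from -0.08 without Fadu parent replicate 1 to -0.75 without Fadu parent replicate 2. Of the 16, limma called 0 in each line, with 5, 2 and 0 at an unadjusted p under 0.05. The background of calls over all genes was 3.28% in Detroit, 0.0222% in Fadu and 0% in OECM1, and that of unadjusted p under 0.05 was 16.1%, 2.02% and 3.34%.

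Within the sterol arm, HMGCS1, which condenses acetoacetyl-CoA with acetyl-CoA, had the lowest fold change in Fadu. Its log2 values were 4.53 and 5.22 in the Fadu subline and 6.13 and 6.65 in the Fadu parent. In Detroit they were 4.74 and 5.19 in the subline and 5.95 and 5.65 in the parent. OECM1 ran the other way, with 6.11 and 6.72 in the subline and 6.03 and 5.41 in the parent. The groups did not overlap in any of the 3 lines. With limma and n = 2 arrays a group, the log2 fold changes were -1.52 in Fadu (SE 0.358, adjusted p = 0.944), -0.83 in Detroit (adjusted p = 0.277) and 0.70 in OECM1 (adjusted p = 1.00). A second HMGCS1 probe set gave -1.26, -0.38 and 0.05 for Fadu, Detroit and OECM1.

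DHCR7, the enzyme of the last reduction to cholesterol, had the largest sterol arm difference in Detroit. Its log2 values were 7.06 and 6.29 in the Detroit-labelled subline and 8.57 and 8.26 in the Detroit parent. Both subline arrays lay below both parent arrays, with a log2 fold change of -1.74 (SE 0.477, adjusted p = 0.0782). In Fadu the subline read 7.70 and 7.90 and the parent 8.92 and 8.64, again without overlap (log2 fold change -0.98, adjusted p = 1.00). The OECM1 parent arrays were far apart, at 8.58 and 7.06, and enclosed the subline values of 8.28 and 7.90. The DHCR7 difference in Detroit passed the threshold without Detroit invasion replicate 1 (log2 fold change -2.13, adjusted p = 0.0320), a fit in which 10.2% of all genes were called. Leaving out either OECM1 parent array had the same result (adjusted p = 0.0292 and 0.0301). A second probe set gave -1.36 in Detroit and -0.96 in Fadu.

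LSS, which cyclises oxidosqualene to lanosterol, read 5.82 and 5.43 in the Fadu subline against 6.59 and 6.98 in its parent, and 5.71 and 6.02 in the Detroit-labelled subline against 6.42 and 6.49. Neither pair of groups overlapped, and the log2 fold changes were -1.16 in Fadu and -0.59 in Detroit (adjusted p = 1.00 and 0.398). In OECM1 the subline values of 6.35 and 6.92 overlapped the parent values of 7.02 and 6.66. HMGCS1, LSS and DHCR7 were the members whose subline arrays lay below both parent arrays in both Detroit and Fadu, which 4% of all genes did. For LSS the mean of its 3 probe sets gave only -0.44 in Fadu, and its other probe sets were above the dim limit on 2 arrays and on 0.

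Of the enzymes that carry mevalonate onward, mevalonate kinase, MVK, ranged from 6.98 to 7.57 over the 12 arrays, and MVD, mevalonate diphosphate decarboxylase, from 5.29 to 6.33. PMVK, phosphomevalonate kinase, read 5.75 and 6.02 in the Detroit-labelled subline against 6.33 and 6.77 in the parent (log2 fold change -0.67, adjusted p = 0.286). IDI1, the isomerase that makes dimethylallyl diphosphate, read 7.48 and 6.89 against 8.17 and 8.19 (-0.99, adjusted p = 0.340). FDPS, farnesyl diphosphate synthase, read 8.01 and 8.54 in the Fadu subline and 9.10 and 8.77 in its parent (-0.66, adjusted p = 1.00). In OECM1 its 2 subline arrays, at 8.85 and 9.06, lay just above the parent arrays at 8.79 and 8.80. ACAT2, a cytosolic thiolase at the entry to the pathway, read 6.03 and 5.14 in the Detroit-labelled subline and 6.09 and 7.16 in the parent (-1.04, adjusted p = 0.265).

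After squalene, duplicates of several genes lay far apart. SQLE, squalene epoxidase, read 8.82 and 7.70 in the Detroit-labelled subline against 7.81 and 7.33 in its parent, and 8.31 and 8.54 in the OECM1 subline against 8.97 and 6.77. MSMO1, a sterol C4 methyl oxidase, read 7.90 and 8.84 in the OECM1 subline against 8.69 and 6.17 in its parent. Both groups overlapped in OECM1, and OECM1 parent replicate 2 held the lowest value of either gene. Without that array the OECM1 log2 fold changes of 0.56 for SQLE and 0.94 for MSMO1 turned to -0.54 and -0.32. EBP, the sterol isomerase, read 9.63 and 7.50 in the Detroit-labelled subline and 7.81 and 7.91 in the parent. NSDHL, a sterol dehydrogenase, read 6.33 and 5.09 against 6.40 and 7.45 (log2 fold change -1.21, adjusted p = 0.256). The other post-squalene genes, HSD17B7, SC5D and TM7SF2, had log2 fold changes from -0.94 to 0.42 over the 3 lines and 0 calls.

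**Figure D2:**
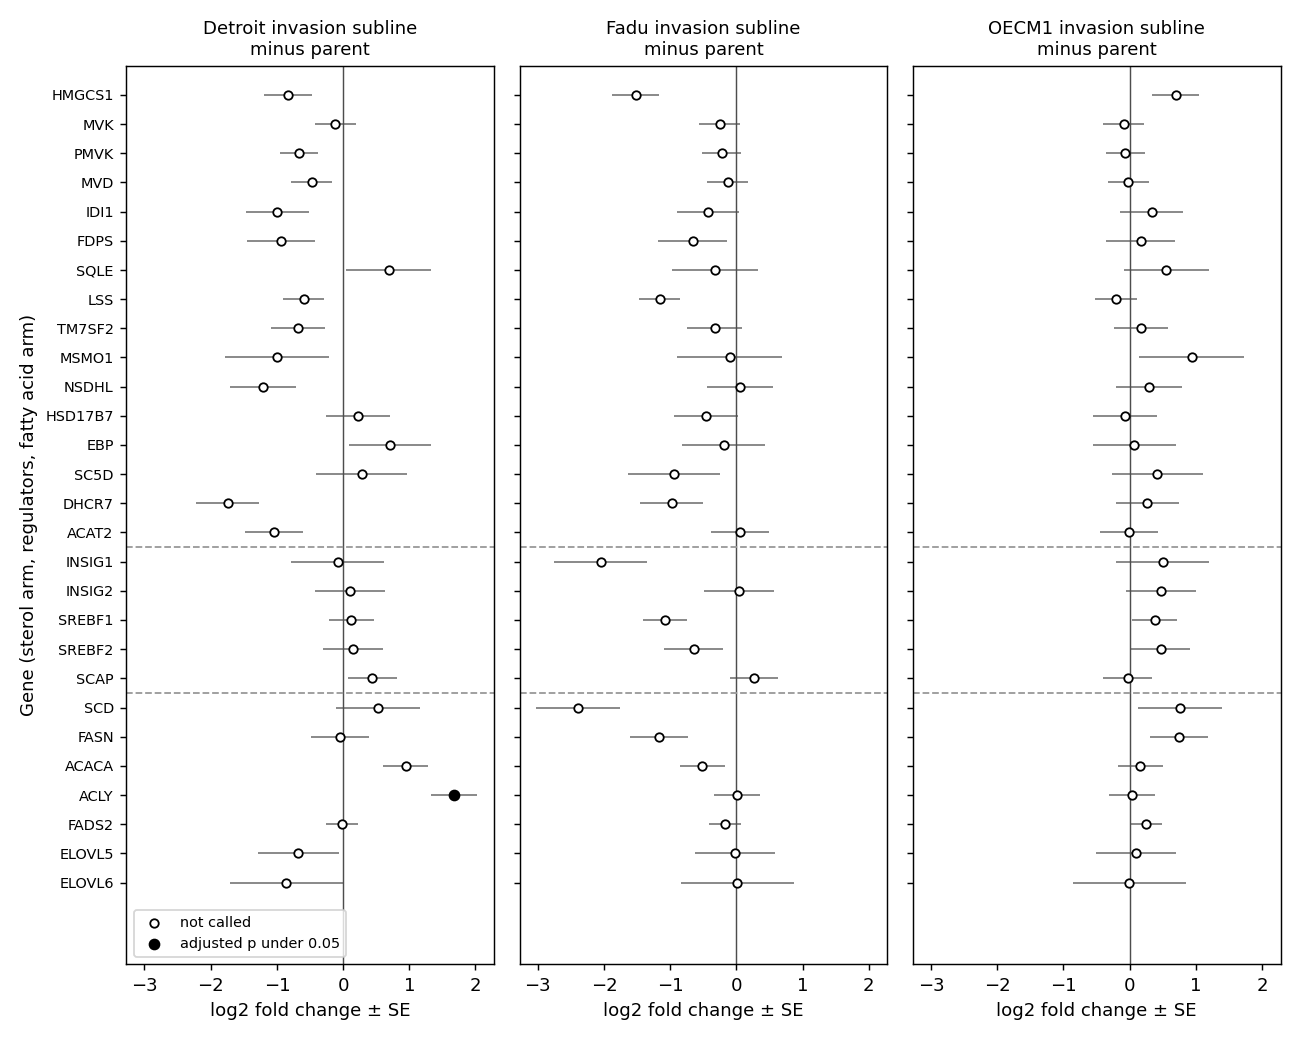
Log2 fold change of each member, invasion subline minus parent, with its standard error from limma (x axis), for the 3 lines (panels); rows are genes, and dashed lines part the sterol arm, the regulators and the fatty acid arm. ACLY in Detroit, at 1.68, is the filled point; SCD at -2.39 and INSIG1 at -2.05 in Fadu are the members farthest from 0 without a call.

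Among the regulators, INSIG1, SREBF1 and SREBF2 had lower values in the Fadu subline than in its parent, and INSIG2 and SCAP did not. Of the 5 genes limma called 0 in each line, with 0, 2 and 0 at an unadjusted p under 0.05 in Detroit, Fadu and OECM1. Over all genes the calls were 3.28%, 0.0222% and 0%, and the unadjusted shares 16.1%, 2.02% and 3.34%. The median log2 fold change of the 5 genes was 0.12, -0.65 and 0.47 in the same order. INSIG1, the sterol-regulated anchor of the SREBP complex, read 5.92 and 6.73 in the Fadu subline and 9.40 and 7.35 in the Fadu parent. Both subline arrays were below both parent arrays, although the parent arrays differed widely (SD 1.45). The log2 fold change was -2.05 (SE 0.699, adjusted p = 1.00, limma), a 4.14-fold lower level, and the other INSIG1 probe sets gave -1.58 and -2.36. With 1 array left out the INSIG1 log2 fold change in Fadu ran from -3.07 to -1.03. In Detroit INSIG1 was at 5.55 and 5.74 in the subline and 5.67 and 5.78 in the parent, the lowest 4 values of the 12. In OECM1 the subline read 7.04 and 8.81 and the parent 7.96 and 6.89, which overlapped.

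SREBF1, which encodes the factor most tied to fatty acid genes, was at 6.79 and 6.85 in the Fadu subline and 8.32 and 7.47 in its parent. The log2 fold change was -1.08 (SE 0.337, adjusted p = 1.00). In OECM1 it was the highest of all groups, at 9.14 and 9.08 in the subline and 8.82 and 8.65 in the parent, and these arrays did not overlap either (log2 fold change 0.38, adjusted p = 1.00). In Detroit the subline values of 7.02 and 6.95 and the parent values of 6.76 and 6.96 overlapped. SREBF2, whose protein mainly drives sterol genes, read 6.96 and 7.09 in the Fadu subline against 7.51 and 7.83 in its parent (log2 fold change -0.65). OECM1 gave 7.88 and 7.71 against 7.02 and 7.63 (0.47). In the Detroit-labelled subline its 2 arrays lay at 7.88 and 6.38, on either side of the parent values of 6.98 and 6.97. Without Detroit invasion replicate 1 the Detroit log2 fold change of 0.15 turned to -0.60. INSIG2, the second anchor protein, read 6.01 and 6.49 in the Fadu subline and 6.56 and 5.86 in its parent, and SCAP, the escort, 7.18 and 7.76 against 7.49 and 6.91. These overlapped. In OECM1 INSIG2 read 8.12 and 7.49 in the subline and 7.99 and 6.68 in the parent, which also overlapped (0.47, adjusted p = 1.00). In Detroit SCAP read 7.39 and 7.38 in the subline and 7.14 and 6.76 in the parent, without overlap (0.44, adjusted p = 0.672).

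In the fatty acid arm, 1 gene passed the test. ACLY, which makes cytosolic acetyl-CoA from citrate, was higher in the Detroit-labelled subline than in the Detroit parent. Its log2 values were 8.63 and 8.38 in the Detroit-labelled subline and 6.47 and 7.17 in the Detroit parent. The groups were well apart, and the log2 fold change was 1.68 (SE 0.346, adjusted p = 0.0243, limma), or 3.20-fold. The ACLY mean of that subline, 8.50, lay nearer to the Fadu parent (8.98) than to the Detroit parent (6.82). ACLY and ACACA were among the 10 members of which this held. ACLY was the 1 member of 28 called in Detroit, where 3.28% of all genes were called, 1.51% as higher. The call was lost when Detroit parent replicate 1 was left out (1.33, adjusted p = 0.153), with only the 4 Detroit arrays (adjusted p = 0.247), with array weights (adjusted p = 0.0730) and with the mean of its 3 probe sets (log2 fold change 0.80, adjusted p = 0.398). The other ACLY probe sets gave 0.33 and 0.39. In Fadu ACLY read 8.74 and 9.24 in the subline and 9.04 and 8.92 in the parent, and in OECM1 8.82 and 8.81 against 8.96 and 8.61, so that the groups overlapped in both lines.

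ACACA, acetyl-CoA carboxylase, which commits acetyl-CoA to fatty acids, ran beside ACLY in Detroit. It read 8.42 and 7.68 in the Detroit-labelled subline and 7.15 and 7.07 in the parent, without overlap (log2 fold change 0.94, adjusted p = 0.181). Its second probe set gave 0.06. In Fadu the order was the reverse, with 8.03 and 8.40 in the subline and 8.87 and 8.60 in the parent (-0.52, adjusted p = 1.00).

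SCD, which inserts the double bond of oleate, had the lowest fold change of all members in Fadu. Its log2 values were 7.15 and 7.34 in the Fadu subline and 10.69 and 8.58 in the Fadu parent. The subline arrays were close together and below both parent arrays, which differed widely (SD 1.49). The log2 fold change was -2.39 (SE 0.631, adjusted p = 1.00, limma), or 5.23-fold lower. With 1 array left out this value ran from -3.44 to -1.33. The other 3 SCD probe sets gave -1.91, -1.96 and -1.76. In OECM1 the subline read 10.12 and 10.02 and the parent 10.01 and 8.61, where the upper parent array came within reach of the subline (0.76, adjusted p = 1.00). In Detroit the values were 8.06 and 7.55 against 6.999 and 7.56, which overlapped.

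FASN, the fatty acid synthase, read 6.28 and 6.58 in the Fadu subline and 7.16 and 8.04 in its parent, which put its log2 fold change at -1.17 (SE 0.436, adjusted p = 1.00). In OECM1 it read 7.78 and 7.64 in the subline and 7.11 and 6.83 in the parent (0.75, adjusted p = 1.00). Neither line overlapped. A second FASN probe set, with a mean of 5.11, gave 0.04 in Fadu and -0.41 in OECM1, so the probe sets disagreed. FADS2, the delta-6 desaturase, lay within 6.03 and 6.54 over all 12 arrays. In OECM1 it read 6.54 and 6.33 in the subline and 6.13 and 6.25 in the parent (0.25, adjusted p = 1.00). ELOVL5 and ELOVL6, chain elongases, read 9.70 and 9.46 against 9.97 and 9.23, and 4.56 and 5.91 against 5.28 and 5.16, in the Fadu subline and parent. ELOVL6 in the OECM1 parent spanned 8.49 and 5.37, around the subline values of 6.85 and 7.002. In Detroit ELOVL6 read 4.89 and 3.50 in the subline and 4.48 and 5.63 in the parent, which overlapped (-0.86, adjusted p = 0.745). The median log2 fold change of the 7 fatty acid genes was -0.02 in Detroit, -0.17 in Fadu and 0.16 in OECM1. Limma called 1, 0 and 0 of them, against 3.28%, 0.0222% and 0% of all genes. At an unadjusted p under 0.05 there were 2, 2 and 0, against 16.1%, 2.02% and 3.34% of all genes.

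Counted over the arms, 13 of the 28 members had both Fadu subline arrays below both Fadu parent arrays, and 0 had both above. Over all genes these shares were 18% and 15.7%. Of the 13, 6 were sterol genes, 3 regulators and 4 fatty acid genes. In Detroit 10 members were lower in this way, 9 of them sterol genes, and 3 were higher, against 18.8% and 19.9% of all genes. Of all genes 1.77% were called lower in Detroit, and 0 members. In OECM1 7 were higher and 0 lower, against 13.5% and 11.6%. With 1 array left out the rule is easier to meet, and the shares over all genes grew too. In Fadu 22 members were lower without invasion replicate 2 (33.3% of all genes) and 23 without parent replicate 2 (31.8%), but 14 without invasion replicate 1 (37.4%) and 13 without parent replicate 1 (38.7%). In Detroit 16 were lower without invasion replicate 1 (44.4%). In OECM1 12 were higher without invasion replicate 1 (24.6%), 22 without parent replicate 1 (35.5%) and 11 without parent replicate 2 (39.2%).

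**Figure D3:**
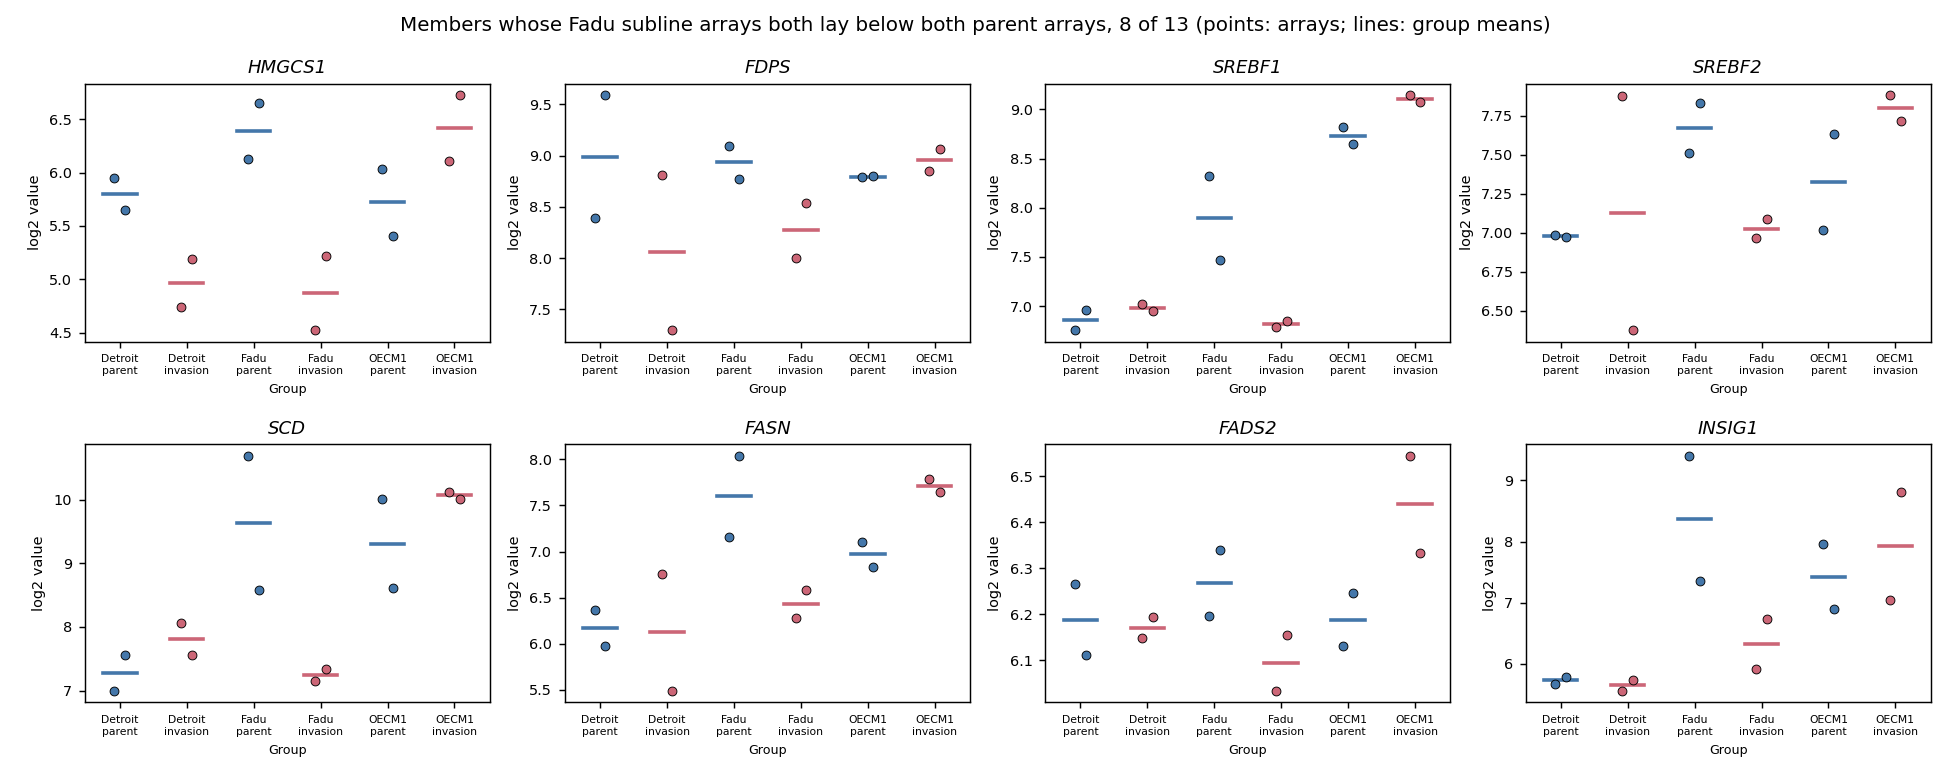
Log2 values (y axis, own scale in each panel) of 8 of the 13 members without overlap in Fadu, by group (x axis); points are arrays, lines are means of 2 arrays, blue is parent and red is subline. The first 7 panels are the members whose OECM1 subline arrays both lay above the OECM1 parent; in the INSIG1 panel the OECM1 arrays overlap.

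The same 7 members that were higher without overlap in OECM1 were all lower without overlap in Fadu: HMGCS1, FDPS, SREBF1, SREBF2, SCD, FASN and FADS2. In OECM1 the margin was narrow for SCD, 10.02 against 10.01, and for FDPS, 8.85 against 8.80. Over all genes 2.48% did so, and 1.71% ran the opposite way, as did 0 members. The difference between the OECM1 and Fadu effects was tested as an interaction, and limma called 0 of 28 members and 0% of all genes, with 5 members and 2.36% of genes at an unadjusted p under 0.05. Those 5 were HMGCS1, INSIG1, SREBF1, SCD and FASN, with differences of 2.22, 2.55, 1.45, 3.15 and 1.91 on the log2 scale. Over all 3 lines the F test of unequal effects called 0 members, with 7 at an unadjusted p under 0.05, against 0.701% of genes called and 8.67% unadjusted. HMGCS1 came closest (adjusted p = 0.189). Without OECM1 parent replicate 1 the count of opposed members was 11, against 5.1% of all genes.

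Averaged over the 3 line pairs, with lines as the replicates, limma called 0 members and 0% of genes, with 1 member and 4.3% of genes at an unadjusted p under 0.05. The median average log2 fold change was -0.28 in the sterol arm, -0.01 for the regulators and -0.16 in the fatty acid arm. Sterol values below 0 numbered 14 of 16, against 52.2% of all genes.

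**Figure D4:**
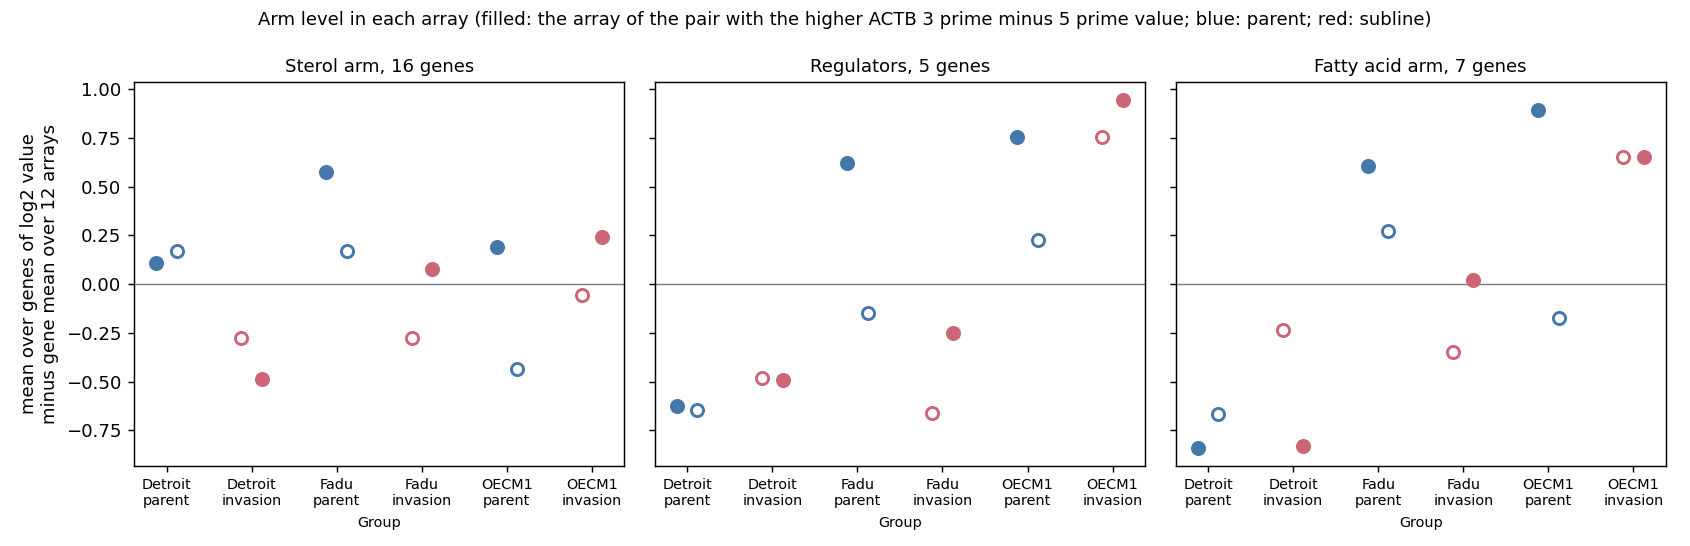
Mean over the genes of each arm of the log2 value minus the gene's mean over 12 arrays (y axis), by group (x axis), 1 point per array; filled points are the array of each pair with the higher ACTB 3 prime minus 5 prime value. In the Fadu and OECM1 groups the filled point is the higher one in the sterol panel, and in both Detroit groups it is the lower one.

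A control measure was set beside the arms inside groups. The ACTB control value, its 3 prime minus its 5 prime probe set on the log2 scale, was higher in the array with the higher sterol mean in 4 of the 6 groups, those of Fadu and OECM1. For the regulators this held in 5 of the 6 groups and for the fatty acid arm in 3. In the Fadu parent the sterol mean was 0.58 in the array with an ACTB value of 0.55 and 0.17 in that with -0.23. In the OECM1 parent it was 0.19 at 0.87 and -0.44 at 0.04. In the Detroit-labelled subline the order was opposite, with -0.28 at an ACTB value of -0.28 and -0.49 at 0.80. With this value as a covariate the sterol medians were -0.69 in Detroit, -0.33 in Fadu and 0.15 in OECM1. Without OECM1 parent replicate 2 the OECM1 regulator median turned to -0.03, and the fatty acid median was 0.89 without OECM1 parent replicate 1. The Fadu fatty acid median was -0.66 without Fadu invasion replicate 2. The Detroit fatty acid median turned to 0.59 without Detroit invasion replicate 2. The 18S control of Fadu invasion replicate 1 was 12.62, against 4.87 to 7.19 in the other 11 arrays.

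Among the parents, 2 fatty acid genes and 1 regulator differed. ACLY, ACACA and SREBF1 were called across the 3 parents by the F test (adjusted p = 0.00667, 0.0397 and 0.0201, limma), 3 of 28 members where 5.29% of all genes were called. Of the 16 sterol genes 0 were called, with 4 at an unadjusted p under 0.05, against 19.3% of all genes. Between pairs of parents, calls over all genes were 2.58% for Fadu against Detroit (1.29% higher), 3.4% for OECM1 against Detroit (1.87% higher, 1.53% lower) and 2.94% for OECM1 against Fadu (1.43% higher, 1.5% lower). ACLY averaged 6.82 ± 0.495 in the Detroit, 8.98 ± 0.0852 in the Fadu and 8.78 ± 0.249 in the OECM1 parent (SD, n = 2). It was thus 4.46-fold higher in the Fadu and 3.88-fold higher in the OECM1 parent than in the Detroit parent (adjusted p = 0.00821 and 0.0109), and Fadu and OECM1 differed by only -0.20 on the log2 scale. The other ACLY probe sets gave 0.66 and 0.82 for the Fadu and 0.28 and 0.39 for the OECM1 contrast with Detroit.

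ACACA averaged 7.11 ± 0.0591 in the Detroit parent, 8.73 ± 0.192 in that of Fadu and 8.19 ± 0.0722 in that of OECM1 (SD, n = 2). Fadu was 3.08-fold above Detroit (adjusted p = 0.0312), and OECM1 lay between them without a call (adjusted p = 0.123). The other ACACA probe set gave 0.45 on the log2 scale for Fadu against Detroit. With the mean of both, the difference was 1.04 and the call ended (adjusted p = 0.110), as it did in 8 of the 12 fits that left out 1 array (adjusted p up to 0.259). SREBF1 was lowest in Detroit and highest in OECM1, with means in the order Detroit, Fadu, OECM1 of 6.86 ± 0.146, 7.89 ± 0.599 and 8.73 ± 0.122. OECM1 was 3.66-fold above Detroit (adjusted p = 0.0116), and the steps between neighbours did not pass the test (adjusted p = 0.164 and 0.261). TM7SF2, a sterol C14 reductase, ran the other way at 6.80 ± 0.673, 5.66 ± 0.418 and 5.04 ± 0.576. It was 3.40-fold lower in OECM1 than in Detroit (adjusted p = 0.0405), and it missed the F test (adjusted p = 0.0631).

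**Figure D5:**
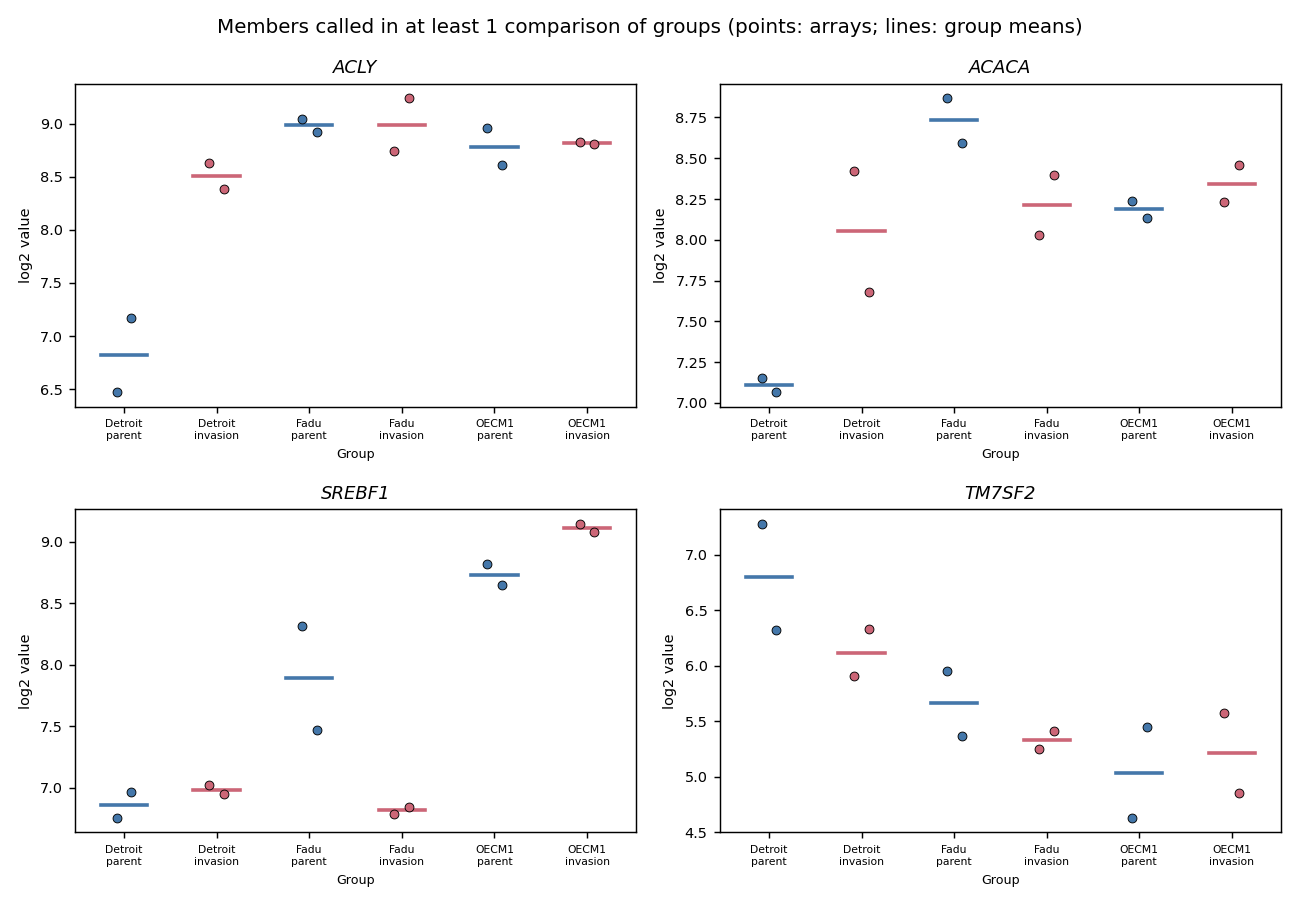
Log2 values (y axis, own scale in each panel) of the 4 members called in at least 1 comparison, by group (x axis); points are arrays, lines are means of 2 arrays, blue is parent and red is subline. ACLY is at 6.47 and 7.17 in the Detroit parent and above 8.3 in every other array, and SREBF1 is at 8.65 or above in the 4 OECM1 arrays.

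These parent calls depended on which arrays were fitted, while the log2 differences behind them kept their sign with 1 array left out. For Fadu against Detroit they ran from 1.81 to 2.51 for ACLY and from 1.49 to 1.76 for ACACA. For OECM1 against Detroit they ran from 1.61 to 2.31 for ACLY, 1.77 to 1.97 for SREBF1 and -2.24 to -1.29 for TM7SF2. Without Detroit parent replicate 1 no member passed the F test, and ACLY stood at adjusted p = 0.0562, SREBF1 at 0.100 and ACACA at 0.138. Without Detroit parent replicate 2 ACLY alone was called. Between pairs, the ACLY calls were lost without either Fadu parent array (adjusted p = 0.0967 and 0.0615) and without OECM1 parent replicate 1 (0.0804). The SREBF1 F test also missed without OECM1 parent replicate 1 (adjusted p = 0.0717), and the ACACA F test without either Fadu array of either group, either OECM1 invasion array or OECM1 parent replicate 1 (adjusted p = 0.0633 to 0.174). The TM7SF2 contrast was lost in 8 of the 12 fits that left out 1 array (adjusted p up to 0.239). PMVK and SCD stood at adjusted p = 0.0979 and 0.0880 in the F test. PMVK read 6.33 and 6.77 in the Detroit, 5.93 and 5.52 in the Fadu and 5.21 and 5.70 in the OECM1 parent. SCD was 5.10-fold and 4.08-fold higher in the Fadu and OECM1 parents than in the Detroit parent, at 9.63 ± 1.49 and 9.31 ± 0.987 against 7.28 ± 0.398, and it passed the F test without Fadu parent replicate 2 (adjusted p = 0.0199). The other SCD probe sets gave smaller log2 differences from the Detroit parent, 1.34, 1.27 and 1.15 in Fadu and 0.79, 0.72 and 0.43 in OECM1. INSIG1 averaged 8.38 ± 1.45 in the Fadu parent and 5.73 ± 0.0783 in the Detroit parent (adjusted p = 0.0853). EBP and SQLE were higher in the Fadu parent than in both other parents by 1.66 to 2.12 on the log2 scale, with 0 calls.

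Between the Detroit-labelled subline and the Fadu parent, 23 of the 28 members had lower values in the subline and 5 higher, and 48.3% of all genes had lower values. Limma called 0 of 28 members and 0% of all genes, with 10 members and 3.9% of genes at an unadjusted p under 0.05. Both Detroit-labelled arrays lay below both Fadu parent arrays for 17 members, including all 7 of the fatty acid arm, against 14% of genes, and above for 0. The median log2 difference was -0.90 in the sterol arm, -0.54 for the regulators and -1.02 in the fatty acid arm, against 0.01 over all genes. The 10 lowest differences were -2.73 for INSIG1, -2.11 for DHCR7, -1.82 for SCD, -1.48 for MSMO1, -1.47 for FASN, -1.42 for HMGCS1, -1.41 for EBP, -1.32 for IDI1, -1.27 for SQLE and -1.24 for ELOVL5. The Fadu subline shares the Fadu parent as its control, and its own values for these genes, in the same order, were -2.05, -0.98, -2.39, -0.10, -1.17, -1.52, -0.19, -0.43, -0.32 and -0.02. Without Detroit invasion replicate 1, EBP, DHCR7 and FASN were called, 3 of 28 members, as were 2.74% of all genes in that fit. By group means, the Detroit-labelled subline was nearer to the Fadu subline than to the Fadu parent in 19 of 28 members, against 39.7% of all genes.

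Other genes of the pathways were counted from lists named beside the members. Of 17 genes of sterol handling, 11 were tested, and limma called 0 in each line, with 0, 0 and 1 at an unadjusted p under 0.05 in Detroit, Fadu and OECM1. Of 25 genes of fatty acid handling, 18 were tested, with 3 called higher in Detroit and 0 in Fadu or OECM1 (5, 0 and 0 at an unadjusted p under 0.05). Over all genes 1.51% were called higher in Detroit and 16.1% had an unadjusted p under 0.05. PLIN2, which coats lipid droplets, read 6.25 and 8.89 in the Detroit-labelled subline and 4.11 and 4.27 in the Detroit parent (3.38, adjusted p = 0.0147). ACADM, an acyl-CoA dehydrogenase of fatty acid oxidation, read 6.87 and 7.89 against 4.47 and 5.11 (2.59, adjusted p = 0.00778). CPT2, which returns acyl groups to CoA inside mitochondria, read 6.89 and 7.21 against 5.87 and 5.66 (1.29, adjusted p = 0.0458). The PLIN2 value ran from 2.06 to 4.71 with 1 array left out and was 1.70 with the mean of its probe sets. With only the 4 Detroit arrays the calls of PLIN2, ACADM and CPT2 ended (adjusted p = 0.204, 0.110 and 0.232). In these 3 genes the Detroit groups did not overlap, and the Fadu parent lay at 6.62 and 6.60 for PLIN2, 6.997 and 6.50 for ACADM and 6.58 and 6.58 for CPT2. Without Detroit parent replicate 1 the 3 calls ended (adjusted p = 0.0989, 0.0780 and 0.146), that of PLIN2 also without replicate 2 (adjusted p = 0.0682), and that of CPT2 in 9 of the 12 fits that left out 1 array. Among the parents, LPIN2, a phosphatidate phosphatase, was higher in OECM1 than in the Detroit and Fadu parents by 1.13 and 1.37 (adjusted p = 0.0354 and 0.0148). Several single arrays end these calls (adjusted p up to 0.186 and 0.121). ACADM was higher in the Fadu than in the Detroit parent by 1.96 (adjusted p = 0.0355), a call lost in 8 of the 12 fits that left out 1 array.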

How the data were processed

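The deposited table held log2 expression values, made by the authors with RMA, per the submitters' processing notes, which also name Partek version 7. Genome build: not given in the sources used here. Differences of weak genes are compressed by RMA. Of 22283 probe sets, 68 were controls, 19065 had 1 gene symbol, 1043 several and 2107 none in the platform annotation. Genes were kept if at least 2 arrays exceeded the 40th percentile of all values (4.52), which left 8992 genes and all 28 measured members. Unused columns of values numbered 0.

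Limma 3.58.1 in R 4.3.3 fitted 6 group means with moderated variances that follow intensity, and Benjamini-Hochberg adjustment covered all 8992 genes (threshold 0.05). The fit was run on simulated data in which each gene had the same spread in all 6 groups. In the real data the root mean square difference of duplicates ran from 0.42 in the Fadu subline to 0.89 in the Detroit-labelled subline. That run therefore does not test the effect of unequal spread. The labels do not say whether duplicates were separate cultures, so p-values measure only the spread between these arrays, which may be technical. Arrays have no read depth, and their number limits the precision.

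The members and lists were chosen with earlier results of these data known. Array values were given for members called in a subline comparison, the 3 largest absolute fold changes per arm and line, and the 6 smallest p among the parents. Other members were described by the same values or by their range. Alternatives covered arrays fitted, replicate numbers, filters, scaling, probe sets, weights, the trend, ACTB and single arrays.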

Additional observations from a re-analysis of the deposited data

Results flagged for a closer look

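The 7 members whose subline arrays lay below both parent arrays in Fadu and above both in OECM1 were picked for these opposite directions. The sign of the difference between the lines was thus fixed by the choice, which also favours a large size. The size was tested as an interaction on the same arrays, so it is not free of that choice. On the log2 scale the OECM1 effect minus the Fadu effect was 2.22 for HMGCS1, 0.83 for FDPS, 1.45 for SREBF1, 1.12 for SREBF2, 3.15 for SCD, 1.91 for FASN and 0.42 for FADS2. None passed after adjustment over all genes (adjusted p = 1.00 for each, limma). Groups of 2 arrays were too small for a test of outlying arrays.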

How the results depend on the processing

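Results were recomputed under 10 alternative settings and with each of the 12 arrays left out, where a group left with 1 array is assumed to vary like the others. Members called in Detroit numbered 1, and 0 with only the arrays compared, the mean of all probe sets or array weights, and 0 to 2 with 1 array left out. Members called across the parents numbered 3, and 1 with only the parent arrays or the mean of probe sets, and 0 to 5 with 1 array left out. Duplicates' differences correlated at -0.19, -0.38 and -0.40 between subline and parent in Detroit, Fadu and OECM1. The difference between replicates 1 and 2 thus tended to run in opposite directions in subline and parent. Whether the samples were paired in another order cannot be told from these values. With the replicate block the counts were 0 in Detroit and 0 across the parents, and with the numbers crossed, which was added after seeing the data, 2 and 5. For the Detroit-labelled subline against the Fadu parent the count of 0 reached 3 with 1 array left out. Counts of 0 in Fadu, OECM1, the difference between lines and the average stayed 0 in every setting run, 0 to 0. In Fadu, OECM1 and the average, 0.0222%, 0% and 0% of all genes were called in the main fit. For the difference between lines it was 0.701%. All these counts of 0 therefore say little about the members. With 1 array left out, members without overlap numbered 13 to 23 in Fadu and 7 to 22 in OECM1. They numbered 10 to 16 in Detroit, and 7 to 11 were opposed. The shares over all genes moved too, from 18% to 38.7%, 13.5% to 39.2%, 18.8% to 44.4% and 2.48% to 7.88% in the same order. Under the filters, the scaling and the probe set mean the members numbered 12 to 14, 5 to 7, 10 to 11 and 5 to 7. Of 966 values of named genes under an alternative, 845 kept their direction and side of the threshold, 106 lost a call, 9 gained one and 6 changed sign. All 6 had no call and left out 1 array: INSIG1 in OECM1 ranged from -0.38 to 1.38, INSIG2 from -0.18 to 1.13, MSMO1 from -0.32 to 2.20 and SQLE from -0.54 to 1.65, and SREBF2 in Detroit from -0.60 to 0.90. The cause of these changes was not tested.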
